A study of Arabidopsis thaliana with 18 samples.

Results

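The 5 genes described here encode the co-activators that switch on the anaphase-promoting complex/cyclosome (APC/C) in Arabidopsis: *CDC20.1* (AT4G33270), *CDC20.2* (AT4G33260), *CCS52A1* (AT4G22910), *CCS52A2* (AT4G11920) and *CCS52B* (AT5G13840). They were chosen by locus as a gene family, by a rule that uses no measured value, although earlier results of these data were known, and each was read through its lowest-numbered splice variant. They are 5 of the 24532 genes in the tables and hold 7 of the 32294 splice variants. The study sequenced mRNA of leaf mesophyll protoplasts, cells freed of their walls, that re-enter division in culture. WT (Col-0) and the double mutant *nph4-1 arf19-1*, which carries lesions in the auxin response factor genes *ARF7* and *ARF19*, were each sampled at Days 0, 4 and 6, with 3 libraries per group and 18 in all. All plants were 23 days old after sowing, and leaves of many plants were pooled for a preparation. Day 0 protoplasts were freshly isolated, and Day 4 and Day 6 protoplasts had been held in alginate gel in the dark with the auxin 2,4-D (1 mg/L) and the cytokinin-like compound thidiazuron (176 µg/L).

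The labels of the 3 Day 6 *nph4-1 arf19-1* libraries also name yucasin, an inhibitor of auxin biosynthesis, although their titles and the study's description of this experiment do not. At Day 6, genotype and that label cannot be told apart.

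The APC/C is a ubiquitin ligase that marks cyclins and other cell cycle proteins for destruction, and it works only with a bound activator. CDC20 proteins activate it in mitosis, where destruction of B-type cyclins lets a cell leave M phase. CCS52 proteins are the plant counterparts of CDH1, and CCS52A1 and CCS52A2 promote endoreplication, in which DNA is copied without division. *CCS52B* is known from synchronised plant cells as a gene transcribed from G2 to M phase.

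*CDC20.1* and *CDC20.2* stand side by side on the minus strand of chromosome 4, at chr4:16044169-16046937 and chr4:16041006-16043549 of TAIR10.1, with 619 bases between them. Their annotated proteins, of 457 and 447 residues, were 96.5% identical, and their coding sequences 95.34%. Of the stretches of 75 bases in the *CDC20.1* transcript, 25.61% also occurred in *CDC20.2*, and of those of 36 bases 35.69%. Reads from such stretches have no unique place, so the levels of both are based on the remaining sequence and on reads that separate them. *CCS52A1* lies at chr4:12012408-12016012 on the plus strand and *CCS52A2* at chr4:7160243-7163427 on the minus strand, and their proteins were 80.25% identical, with no shared stretch of 75 bases. An annotated gene on the same strand (AT4G05930) overlaps the *CCS52A2* span, but its transcript shared no stretch of 75 bases with that of *CCS52A2*. *CCS52B*, at chr5:4468508-4471466 on the minus strand, shared 59.27% of aligned residues with CCS52A1 and 59.3% with CCS52A2. Between the CDC20 and CCS52 proteins, identity was 38.28% to 40.88%. A long non-coding RNA gene on the opposite strand (AT5G02105) covered 16.54% of the 75-base stretches of the *CCS52B* transcript. The study's library kit was stranded, but whether the counting used strand is not given in the sources used here. Reads of that gene and of *CCS52B* may therefore not have been told apart there. The opposite-strand genes AT5G13845 and AT5G13850 also overlap the *CCS52B* span, without a shared stretch of 75 bases.

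M-phase genes of plants are often bound by MYB3R transcription factors at an element with the core AACGG, and S-phase genes by E2F factors. The core was sought on both strands upstream of the 5 genes because the CDC20 copies and *CCS52B* are known as genes of this phase. The 250 bases before each annotated gene start held no match in any of the 5, against 20.57% of 27443 windows with at least 1. In a second window, the 500 bases before the start codon, added after the first was seen to be empty, *CDC20.2* held 3 matches, *CCS52B* held 2, *CDC20.1* and *CCS52A2* held 1 each and *CCS52A1* none. Over all 27443 genes, 34.92% of such windows held at least 1 match, 9.4% at least 2 and 2.32% at least 3. The matches of the tandem CDC20 copies and of *CCS52B* lie within the annotated gene spans, and that of *CCS52A2* lies before its span. An E2F site, written as TTTCCCGC, TTTCGCGC, TTTGCCGC or TTTGGCGC and sought on both strands, was in none of the 5 windows and in 2.94% of all. The matches are printed on the gene's strand from the reference genome (RefSeq, TAIR10.1), with the core or its reverse complement in capitals.
CDC20.1 (chr4:16046867-16046895): tccgaaatatagCCGTTacagtttccaat
CDC20.2 (chr4:16043512-16043540): ccgtaattgatcAACGGctctctcagaaa
CDC20.2 (chr4:16043490-16043518): tcagaaatatagCCGTTaccgactttccg
CDC20.2 (chr4:16043237-16043265): atatcttctaatCCGTTtcgtatactatc
CCS52A2 (chr4:7163711-7163739): aaaaaataaaatCCGTTtgtatcgaaata
CCS52B (chr5:4470947-4470975): cccaagatctgaCCGTTggagcatgaact
CCS52B (chr5:4470831-4470859): atcataatttgaCCGTTggagaacattac

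Mapped reads per library ran from 3438524 to 12119944. Levels are given as CPM, a variant's reads per 1000000 mapped reads, with library sizes scaled by edgeR's TMM factors. Differences are log2 fold changes from edgeR's quasi-likelihood test on all 18 libraries, with Benjamini-Hochberg false discovery rates (FDR) over 25202 splice variants, and a gene was called at FDR < 0.01. The limit |log2FC| > 2 with FDR < 0.01, which the study's methods use, is given beside it. All 5 genes passed the filter on low counts. As a check of the genotype, *ARF7* averaged 159 CPM (SD 6.61, n = 3) in the Day 0 WT libraries and 44.0 CPM (SD 6.41, n = 3) in those of the mutant. *ARF19* was not lower in the mutant at Day 0 (WT 8.996, SD 2.12, mutant 11.3, SD 1.55), and at Day 6 it averaged 73.2 CPM in WT (SD 7.15) and 8.82 in the mutant (SD 1.56). The summed CPM of 5 mesophyll markers was 773 to 1190 in WT and 1107 to 2752 in the mutant at Day 0, and at that time the 3 epidermis markers had at most 5 reads each in any library and the trichome marker *GL2* at most 1. At Day 6 the mesophyll sum was 382 to 553 in WT and 174 to 315 in the mutant, 3 guard cell markers summed to 4.04 to 7.61 and 7.86 to 9.08, and 3 epidermis markers to 0.577 to 1.22 and 2.095 to 2.96. Members of a set did not all move together. *RBCS1A*, the largest mesophyll member, averaged 307 CPM in WT and 128 in the mutant, *LHCB2.1* 37.4 and 35.2, and *CA1* 3.34 and 7.45. Among guard cell markers *MYB60* was lower in the mutant (2.23 and 1.12), and *FAMA* and *KAT1* were higher. The epidermis sum was mainly *FDH* (0.850 and 2.26). The part of these marker differences in the results was not tested. These are mixed cell populations, in which fewer cells in a phase and less RNA per cell cannot be told apart.

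**Figure D1:**
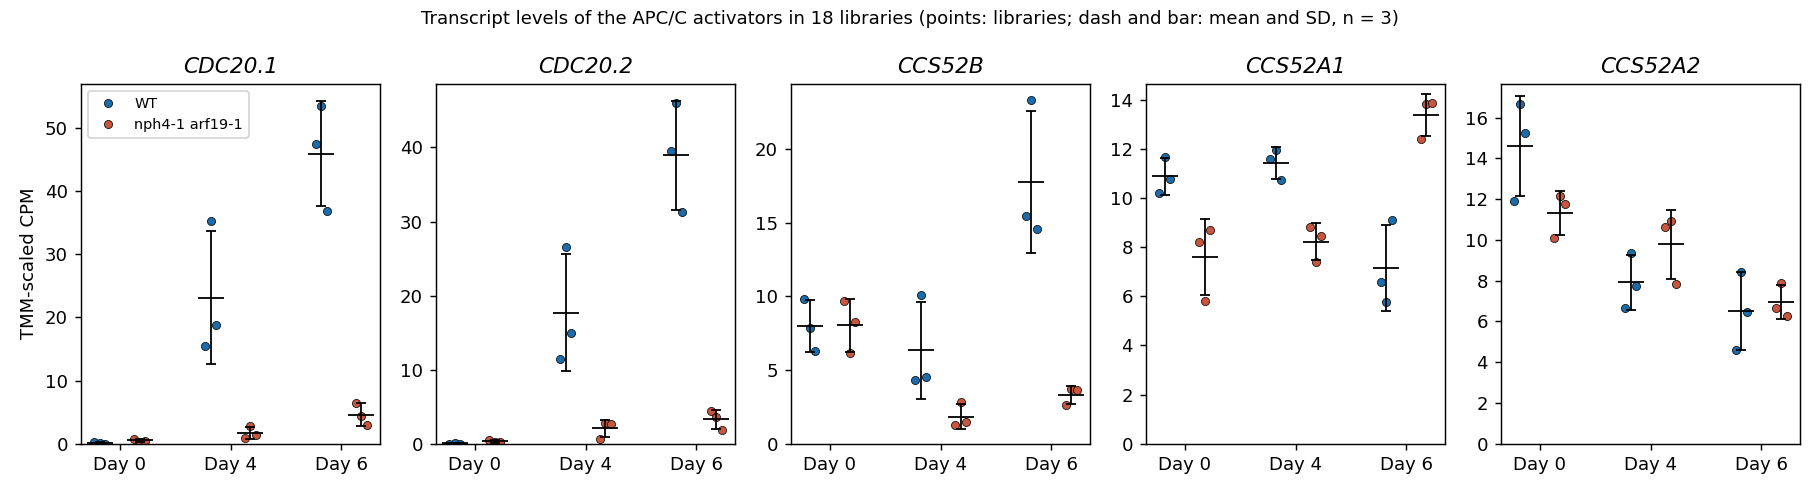
Level of each activator gene (TMM-scaled CPM, linear axes from 0) in the 18 libraries by day. Points are libraries, blue for WT and red for *nph4-1 arf19-1*, and dashes with bars are the mean and SD of 3. The CDC20 copies climb in WT to 45.9 and 38.9 CPM at Day 6 and reach 4.57 and 3.28 in the mutant, whereas *CCS52A1* at Day 6 is higher in the mutant.

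The mitotic activators *CDC20.1* and *CDC20.2* were almost silent in freshly isolated protoplasts. *CDC20.1* had 1, 1 and 0 reads in the WT libraries and 4, 2 and 2 in the mutant ones, and *CDC20.2* had 0, 1 and 0 and then 3, 1 and 1. For *CDC20.1* every mutant library had more reads than any WT library, and for *CDC20.2* the groups met at 1 read. No genotype difference was detectable at this depth (FDR 0.365 and 0.451). For *CDC20.1* the ratio of read rates, mutant over WT, was 4.45, with a 95% Poisson interval of 0.887 to 43.0 that covers counting error only.

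In WT, both CDC20 copies rose in culture. The WT libraries held 15.5, 35.2 and 18.7 CPM of *CDC20.1* at Day 4, then 47.4, 53.5 and 36.9 CPM at Day 6. For *CDC20.2* they held 11.5, 26.6 and 15.0 CPM, then 39.5, 46.02 and 31.3 CPM. No Day 4 library reached the lowest Day 6 library for either gene, and WT replicate 2 was the highest of its group for both genes on both days. Against the 2 reads of *CDC20.1* over the Day 0 WT libraries, the ratio of read rates was 202 at Day 4 (95% Poisson interval 55.6 to 1670) and 403 at Day 6 (111 to 3330). For *CDC20.2*, with 1 read at Day 0, it was 308 (55.0 to 12200) and 682 (122 to 27000). From Day 4 to Day 6 the log2 fold change was 0.99 for *CDC20.1* (SE 0.24, FDR 0.00296) and 1.14 for *CDC20.2* (SE 0.25, FDR 0.00159). These 2 calls were near the threshold. That of *CDC20.1* was lost without Day 4 replicate 1 or 3 or Day 6 replicate 1 or 2 (0.77 to 0.96, FDR up to 0.021), and that of *CDC20.2* without Day 4 replicate 1 or 3 or Day 6 replicate 2 (0.90 to 1.04, FDR up to 0.0127).

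In *nph4-1 arf19-1* protoplasts, the libraries held 0.967, 2.82 and 1.44 CPM of *CDC20.1* at Day 4, then 6.48, 4.35 and 2.88 CPM at Day 6. For *CDC20.2* they held 0.690, 2.82 and 2.68 CPM, then 4.45, 3.56 and 1.83 CPM. Each of these libraries lay below every WT library of its day. The log2 fold change against WT was -3.75 for *CDC20.1* at Day 4 (SE 0.37, FDR 3.10e-07) and -3.29 at Day 6 (SE 0.30, FDR 1.70e-08), which is 13.4-fold and 9.76-fold lower. For *CDC20.2* it was -3.17 at Day 4 (SE 0.38, FDR 2.99e-06) and -3.50 at Day 6 (SE 0.33, FDR 2.43e-08), 9-fold and 11.3-fold lower. All 4 calls held in each fit that left out 1 library of the day.

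The mutant still gained CDC20 transcripts with time. From Day 0 to Day 6, *CDC20.1* rose by a log2 fold change of 3.18 (SE 0.64, FDR 0.000124), and the read rate of *CDC20.2* rose 11.0-fold (95% Poisson interval 4.46 to 35.2). At Day 4 neither rise was called (FDR 0.0483 and 0.0101). From Day 4 to Day 6 the fitted changes in the mutant were 1.45 for *CDC20.1* (FDR 0.0256) and 0.81 for *CDC20.2* (FDR 0.233). The difference between genotypes in that Day 4 to Day 6 change was 0.46 (95% interval -0.66 to 1.58) and -0.33 (-1.55 to 0.89), neither of them called.

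The share of each copy was computed per library. Per kilobase of transcript, *CDC20.1* made up 51.8% to 55.5% of the CDC20 reads in the 6 cultured WT libraries. In the mutant its share was 56.4%, 48.1% and 33.3% in the Day 4 libraries, which held 5 to 16 reads of each copy, and 53.1% to 59.3% at Day 6. Across the 18 libraries their log2 CPM had a Pearson correlation of 0.992, a description, since the libraries share groups and each library's depth is common to both genes. The remaining CDC20 copies of the genome, *CDC20.3* to *CDC20.6*, had at most 1 read in any library and were not tested.

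*CCS52B* differed from the CDC20 copies in that reads were counted for it before culture. Over 16.54% of its 75-base stretches, its counts may include reads of the opposite-strand AT5G02105, whose part was not tested. At Day 0 *CCS52B* stood at 9.81, 7.87 and 6.30 CPM in WT and at 9.72, 6.16 and 8.27 CPM in the mutant. The groups overlapped, with a log2 fold change of 0.00 (95% interval -0.65 to 0.65). The WT levels were 4.35, 10.1 and 4.52 CPM by Day 4, then 15.5, 23.3 and 14.6 CPM by Day 6. The Day 4 WT libraries overlapped those of Day 0, and replicate 2 was again the highest. All Day 6 WT libraries were above all earlier ones, with a log2 fold change of 1.15 from Day 0 (SE 0.27, FDR 0.000655) and 1.496 from Day 4 (SE 0.27, FDR 0.00029).

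In the mutant, *CCS52B* fell. Its levels there were 1.24, 2.82 and 1.44 CPM by Day 4, then 2.59, 3.69 and 3.67 CPM by Day 6, and every one of these libraries was below all Day 0 libraries. The log2 fold change from Day 0 was -2.13 at Day 4 (SE 0.40, FDR 6.92e-05) and -1.26 at Day 6 (SE 0.37, FDR 0.0036). Scaled by library totals alone, the values were -1.12 (FDR 0.0182) and -0.36 (FDR 0.369), neither of them called. The Day 6 call was also lost without Day 0 replicate 1 or 3 or Day 6 replicate 1 of the mutant (FDR up to 0.026). Against WT it was 3.45-fold lower at Day 4 (log2 fold change -1.79, SE 0.40, FDR 0.00141) and 5.32-fold lower at Day 6 (-2.41, SE 0.32, FDR 2.49e-06). The Day 4 call was lost without WT replicate 2 or without mutant replicate 1 (FDR up to 0.0155), and over the 6 fits that left 1 library out the value ran from -2.23 to -1.28. The change from Day 0 to Day 6 differed between the genotypes by -2.41 (SE 0.46, FDR 0.000347).

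*CCS52A1*, an activator that promotes endoreplication, was higher in the mutant at Day 6. Its WT libraries held 10.2, 11.7 and 10.8 CPM before culture, 11.6, 11.97 and 10.7 CPM at Day 4, and 6.58, 5.78 and 9.11 CPM at Day 6. The *nph4-1 arf19-1* libraries held 8.22, 5.82 and 8.70 CPM before culture, 8.84, 7.39 and 8.45 CPM at Day 4, and 12.4, 13.8 and 13.9 CPM at Day 6. The mutant libraries were all below the WT libraries at Days 0 and 4 and all above them at Day 6.

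At Days 0 and 4 the genotype difference of *CCS52A1* was -0.54 (SE 0.19, FDR 0.0528) and -0.47 (SE 0.17, FDR 0.0373), neither of them called. Under library totals alone the Day 4 difference was -0.607 and was called (FDR 0.007). Relative to the median over all variants it was -0.46 under either scaling. At Day 6 the gene was 1.85-fold higher in the mutant (log2 fold change 0.89, SE 0.17, FDR 0.000163), inside the |log2FC| > 2 limit. Each fit that left out 1 Day 6 library kept the call, with values from 0.78 to 1.11. Scaled by totals without TMM, the difference was 0.50 and missed the threshold (FDR 0.0125). In that scaling the median over all variants moved from -0.04 to -0.43, and relative to the median *CCS52A1* was at 0.93 under either scaling.

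From Day 4 to Day 6, *CCS52A1* fell in WT by 0.66 on the log2 scale (SE 0.17, FDR 0.00427) and rose in the mutant by 0.70 (SE 0.18, FDR 0.00548). The 2 changes differed by 1.36 (SE 0.24, FDR 0.000435). The rise in the mutant was lost in each of the 6 fits that left 1 library out (FDR up to 0.0308), and the fall in WT in 4 of 6, without Day 4 replicate 1 or 2 or Day 6 replicate 1 or 2 (FDR up to 0.0314). Their difference kept its call in all 12 such fits (1.24 to 1.58). From Day 0 to Day 6 the changes were -0.60 in WT (SE 0.17, FDR 0.00315) and 0.83 in the mutant (SE 0.18, FDR 0.00032), and differed by 1.43 (SE 0.25, FDR 0.000167). The WT fall from Day 0 was lost without Day 0 replicate 2 or Day 6 replicate 1 or 2 (FDR up to 0.0243), and it turned into a rise of 0.57 (FDR 0.00383) under library totals alone.

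*CCS52A2*, its close relative, was not called between genotypes on any day. Its WT libraries held 11.9, 16.7 and 15.2 CPM before culture, 6.64, 9.34 and 7.76 CPM at Day 4, and 4.62, 8.45 and 6.48 CPM at Day 6. The mutant libraries held 10.1, 12.2 and 11.8 CPM before culture, 10.6, 10.9 and 7.84 CPM at Day 4, and 6.67, 7.91 and 6.28 CPM at Day 6. The genotypes overlapped on every day. Their log2 fold change was -0.38 at Day 0 (95% interval -0.79 to 0.04), 0.33 at Day 4 (-0.11 to 0.76) and 0.11 at Day 6 (-0.35 to 0.58).

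Over time *CCS52A2* fell in WT by 0.90 on the log2 scale to Day 4 (SE 0.20, FDR 0.000297) and by 1.17 to Day 6 (SE 0.20, FDR 1.52e-05). In the mutant it fell by 0.68 to Day 6 (SE 0.22, FDR 0.00778), a call lost in 5 of 6 fits that left 1 library out, the exception being mutant Day 6 replicate 2 (FDR up to 0.0448). These directions hold relative to other genes only, because under library totals alone the values were 0.13, 0.00 and 0.22. Library totals alone moved the median over all variants from 0.23 to 1.26 for Day 0 to Day 4 in WT and from 0.23 to 1.40 for Day 0 to Day 6. Relative to the median, the WT changes were -1.13 and -1.40 with TMM, and -1.13 and -1.40 with totals alone.

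**Figure D2:**
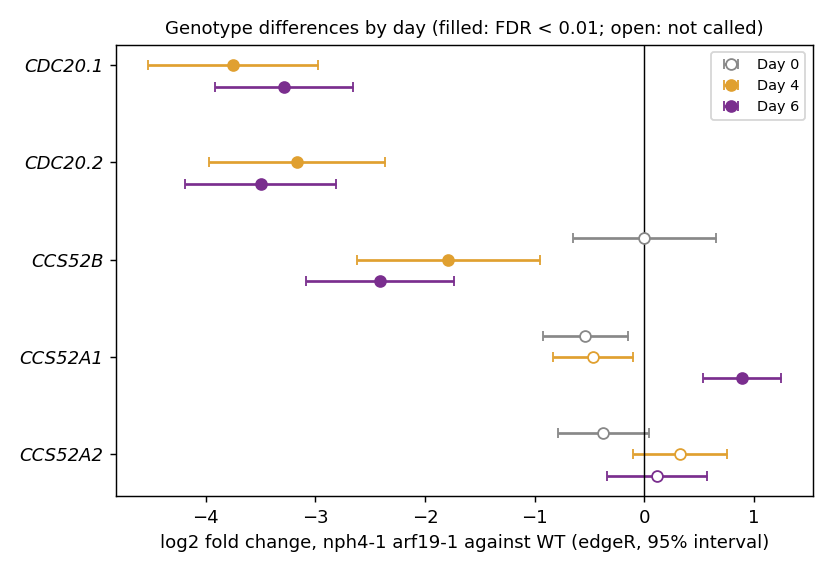
Log2 fold change of *nph4-1 arf19-1* against WT for each activator (x axis, edgeR, bars 95% intervals) at Days 0, 4 and 6, filled where FDR < 0.01. The CDC20 copies and *CCS52B* lie left of 0 at Days 4 and 6, *CCS52A1* lies at 0.89 at Day 6, and the CDC20 copies have no Day 0 point because their WT libraries held at most 1 read.

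Counted over the 5 genes, the genotype comparison called 0 at Day 0, 3 at Day 4 (all lower) and 4 at Day 6 (3 lower and 1 higher). Of all variants tested, 8.25%, 27.8% and 47.4% were called on those days, with 13% lower and 14.8% higher at Day 4, and 23.4% lower and 24% higher at Day 6. At Day 0, 1 of the 5 had an unadjusted p under 0.05 in edgeR, and DESeq2 also called 0. With |log2FC| > 2 as well, 2 of the 5 passed at Day 4 and 3 at Day 6, all lower in the mutant, against 1.80% and 4.01% of all variants that were lower past these limits. From Day 0, WT had 3 of 5 called at Day 4 (all variants 79.5%) and 5 of 5 at Day 6 (81.6%), so these counts are near the background. The mutant had 1 of 5 called at Day 4 (75%) and 5 of 5 at Day 6 (76.1%). From Day 4 to Day 6, 4 of 5 were called in WT (21.1%) and 1 of 5 in the mutant (19.4%). The change over time differed between genotypes for 1 of 5 genes from Day 0 to Day 4 (12.8%), 3 of 5 from Day 0 to Day 6 (26.3%) and 1 of 5 from Day 4 to Day 6 (12.1%).

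Ranked per kilobase of transcript, the order of the 5 genes turned over in WT. At Day 0 *CCS52A2* led at 7.41 ± 1.23 CPM per kb, followed by *CCS52A1* at 5.09 ± 0.35 and *CCS52B* at 4.21 ± 0.92 (SD, n = 3), with the CDC20 copies last. At Day 6 *CDC20.1* and *CDC20.2* led at 21.9 ± 3.99 and 20.06 ± 3.81, with overlapping ranges. Within each of these libraries *CDC20.1* was slightly the higher, at 51.8% to 52.65% of the pair on whole transcript lengths. *CCS52B* followed at 9.36 ± 2.54, then *CCS52A1* at 3.35 ± 0.81 and *CCS52A2* at 3.30 ± 0.97, whose order was not the same in all libraries. In the Day 6 mutant, *CCS52A1* led at 6.26 ± 0.39 and *CCS52A2* followed at 3.53 ± 0.43. *CDC20.1* at 2.18 ± 0.86, *CCS52B* at 1.75 ± 0.33 and *CDC20.2* at 1.69 ± 0.68 had overlapping ranges. Within each of these mutant libraries *CDC20.1* was above *CDC20.2*, at 53.07% to 59.25% of the pair, on 7 to 35 reads of each copy. Division by the whole transcript length understates the CDC20 copies, because reads from stretches they share have no unique place. Of their 75-base stretches, 25.61% in *CDC20.1* and 27.76% in *CDC20.2* were shared, and none in the CCS52A pair. At 36 bases the shared parts were 35.69%, 38.85% and 0.1%, and read length is not given, so the size of the understatement is not known. The order of *CCS52A2* and the CDC20 copies in the Day 6 mutant is therefore not settled.

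The balance between the mitotic and the endoreplication-promoting activators was summarised in each library as the log2 ratio of CDC20.1 plus CDC20.2 to CCS52A1 plus CCS52A2, per kilobase and with 0.5 reads added to each gene. It does not depend on the scaling between libraries. Before culture (Day 0) the WT libraries gave -5.87, -6.16 and -7.00, followed by 0.59, 1.56 and 0.89 on Day 4 and 2.97, 2.81 and 2.15 on Day 6. The *nph4-1 arf19-1* libraries gave -3.62, -4.78 and -4.57 before culture, followed by -3.44, -1.66 and -1.89 on Day 4 and -0.76, -1.41 and -2.002 on Day 6. The ratio was thus above 0 in every cultured WT library and in no mutant library. It understates CDC20, because reads from stretches shared by the CDC20 copies have no unique place and whole transcript lengths were used. A value of 0 therefore need not mark equal amounts, and whether the Day 6 mutant library at -0.76 lies below them is not settled. The same lengths were used in all libraries. At Day 6 the linear ratio was 4.45 to 7.86 in WT and 0.250 to 0.590 in the mutant. The Day 0 ratios rest on at most 7 CDC20 reads per library. Within the CCS52A pair, *CCS52A2* made up 55.9% to 60.7% of the reads per kilobase in WT at Day 0, 38.3% to 45.8% at Day 4 and 43.2% to 61.3% at Day 6. In the mutant its share was 57.1% to 69.3%, 50.1% to 61.5% and 32.9% to 38.2% on those days, so that the genotypes overlapped at Day 0 and did not overlap at Days 4 and 6.

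**Figure D3:**
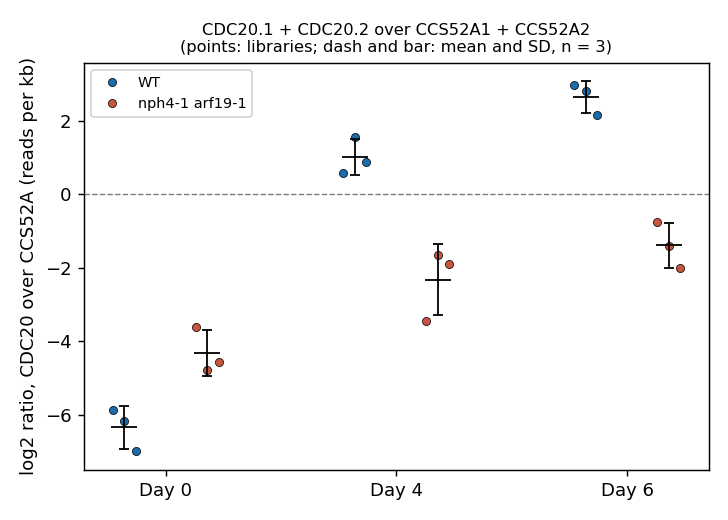
Log2 ratio of CDC20.1 plus CDC20.2 to CCS52A1 plus CCS52A2 (reads per kilobase) in each library by day, with WT in blue and *nph4-1 arf19-1* in red. Dashes and bars are the mean and SD of 3, and all cultured WT libraries exceed the broken line at 0, which no mutant library reaches. CDC20 is understated, since reads from stretches shared by its copies have no unique place, so 0 need not mark equal amounts.

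The core subunits form the ligase that these proteins activate. None of the 12 APC/C core subunits tested was called between genotypes at Day 4 in edgeR, against 27.8% of all variants. DESeq2 also called 0, and 4 had an unadjusted p under 0.05 in edgeR. At Day 6, 4 of the 12 were lower and 0 higher, with a median log2 fold change of -0.55 against -0.04 over all variants. That is fewer called than the 47.4% over all variants, of which 23.4% were lower and 24% higher, and every count of Day 6 calls in the lists that follow is to be read against these shares. The 4 were the scaffold subunit *APC1* (-1.18, FDR 2.61e-05), the cullin subunit *APC2* (-0.72, FDR 0.00751), and the TPR subunits *CDC27A* (-1.17, FDR 8.23e-05) and *APC8* (-0.77, FDR 0.00182). *APC1* was at 16.5 ± 2.20 CPM in WT and 7.20 ± 0.58 in the mutant at Day 6.

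Of all variants, 47.4% were called at Day 6 in either direction, 23.4% lower and 24% higher. Among 5 inhibitors and regulators of the APC/C, 3 were lower in the mutant at Day 6 and 0 higher, a called share near the 47.4%. They were *OSD1*, an inhibitor needed for passage through meiosis (-3.02, FDR 0.000157), *UVI4*, its relative that restrains endoreplication and CCS52A1 activity (-1.95, FDR 0.00147), and *PANS1*, the plant securin-like protein (-2.05, FDR 0.000102). *OSD1* and *UVI4* were low: *OSD1* had 21 to 35 reads per WT library and 1 to 4 per mutant library, and *UVI4* 12 to 26 and 2 to 4. *PANS1* had 46 to 59 reads per WT library and 4 to 13 per mutant library. Of the spindle checkpoint genes, which hold CDC20 inactive until chromosomes are attached, 7 of 8 were lower and 0 higher at Day 6, with a median of -1.85. *BUBR1* (-3.21, FDR 9.43e-06), *MAD2* (-3.12, FDR 1.15e-08) and *BMF3* (-2.22, FDR 0.000484) were lowest, and *BUB3.1* (-0.997, FDR 0.00134), *MPS1* (-1.24, FDR 0.000409) and *BUB3.2* (-1.60, FDR 0.000815) were the least changed of those called.

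Of 12 A- and B-type cyclins, whose proteins are APC/C substrates, 11 were tested and 9 were lower at Day 6, with none higher and a median of -3.20. *CYCB1;4* (-3.77, FDR 1.52e-06), *CYCB1;2* (-3.65, FDR 4.03e-09) and *CYCB2;3* (-3.53, FDR 3.91e-08) were lowest, and *CYCA1;1* (-2.25, FDR 0.00371), *CYCB1;1* (-2.73, FDR 1.5e-06) and *CYCB3;1* (-3.18, FDR 0.000271) were the smallest of the 9. *CYCA2;3*, a cyclin whose removal through CCS52A1 accompanies the start of endoreplication, was at -0.46 (SE 0.46, FDR 0.403).

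Of 13 regulators of endoreplication, 7 were lower at Day 6 and 0 higher, with a median of -0.75. The share called was near the 47.4% of all variants called in either direction (23.4% lower and 24% higher). *SIM*, a kinase inhibitor that promotes endoreplication, was at -2.75 (FDR 1.07e-05), and the replication licensing genes *CDC6* and *CDT1A* were at -2.15 (FDR 9.07e-07) and -1.37 (FDR 7.88e-06). *SPO11-3* and *BIN4*, which encode parts of the DNA topoisomerase VI needed for high ploidy, were at -0.91 (FDR 5.08e-05) and -0.72 (FDR 7.12e-05). The other 2 were *GTL1* and *DEL1*, known as direct transcriptional repressors of *CCS52A1* and *CCS52A2*, respectively. *GTL1* was at 12.5 ± 1.46 CPM in WT and 2.07 ± 0.74 in the mutant at Day 6 (-2.54, SE 0.28, FDR 1.84e-07), and at 11.7 ± 2.09 and 3.45 ± 0.96 CPM at Day 4 (-1.79, SE 0.26, FDR 1.83e-05). *DEL1* had 15 to 27 reads per WT library and 2 to 7 per mutant library at Day 6 (-1.73, SE 0.50, FDR 0.00592). *GTL1* was lower at both Day 4 and Day 6. *CCS52A1* was called higher in the mutant at Day 6 (0.89), but at Day 4 its mutant libraries all lay below WT (-0.47, FDR 0.0373, not called with TMM). *CCS52A2* was not called at Day 6 (0.11, FDR 0.673), where *DEL1* was lower. Whether these repressor genes and the CCS52A genes are linked here was not tested.

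Of 6 MYB3R and E2F factors that act on M- and S-phase genes, 3 were lower at Day 6 and 0 higher. The share called was again near the 47.4% of all variants called in either direction (23.4% lower and 24% higher). The 3 were the activator *MYB3R4* (-2.54, FDR 2.10e-08), the activator *E2FA* (-1.43, FDR 8.96e-06) and *MYB3R1* (-0.76, FDR 0.00183). *MYB3R4* was at 21.1 ± 2.89 CPM in WT and 3.72 ± 0.71 in the mutant. Under library totals alone the counts called lower at Day 6 were 9 of 12 core subunits, 3 of 5 inhibitors, 8 of 8 checkpoint genes, 10 of 11 cyclins, 10 of 13 endoreplication regulators and 3 of 6 factors, and 0 in each list were higher. That scaling moved the Day 6 median over all variants from -0.04 to -0.43. The share of all variants called lower in it is not given here, so these counts cannot be set against a background. At Day 4 the counts called lower were 1 of 5 inhibitors, 4 of 8 checkpoint genes, 8 of 11 cyclins, 5 of 13 endoreplication regulators and 1 of 6 factors, with 2 of 6 factors higher, against 13% of all variants called lower and 14.8% higher (27.8% in either direction). Of the 55 genes tested in these lists, 25 have a span that overlaps an annotated gene on the opposite strand. How much transcript sequence such pairs share was not examined. As the use of strand in counting is not given, some of their reads may not have been told apart. The 3 vascular markers did not move together: at Day 6 *SUC2* averaged 25.95 CPM in WT and 1.40 in the mutant, *SULTR2;2* 0.499 and 8.05 CPM, and *APL* had 0 reads in all 6 libraries. Their summed CPM was 24.0 to 28.04 in WT and 8.64 to 10.4 in the mutant, and their part in these differences was not tested.

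**Figure D4:**
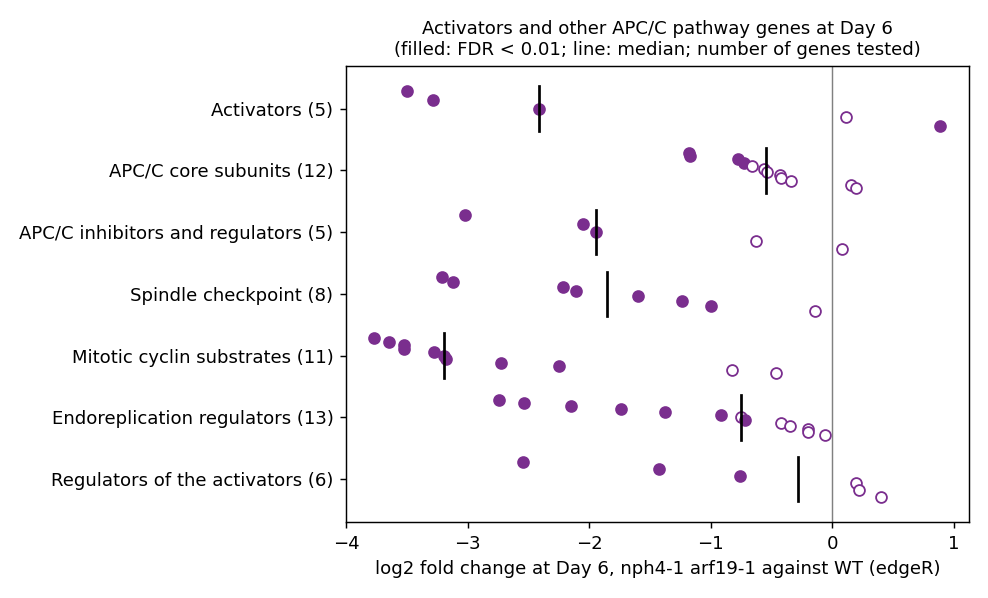
Log2 fold change at Day 6, *nph4-1 arf19-1* against WT (x axis, edgeR), for the 5 activators and the other APC/C pathway genes by list, with the number tested in brackets. Each point is a gene, filled where FDR < 0.01, and vertical lines are medians; the only filled point right of 0 is *CCS52A1* at 0.89.

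The genes whose profile came nearest to each activator were found by Pearson correlation of log2 CPM over the 18 libraries among 18142 others. For *CDC20.1* they were *CDC20.2* (0.992), AT5G66230 (0.983) and AT3G42725 (0.981), and for *CDC20.2* they were *CDC20.1* (0.992), *ENODL14* (0.987) and AT3G02640 (0.986). The nearest to *CCS52B* were AT1G30690 (0.956), *SEC14* (0.939) and *KIN11* (0.929). *CCS52A2* was followed by AT2G17410 (0.904), AT5G09672 (0.892) and *HB-1* (0.888). For *CCS52A1* they were AT2G45540 (0.866), AT2G43490 (0.827) and AT2G21180 (0.813), and over the 6 group means AT2G43490 came first (0.978). Between the activators themselves, *CDC20.1* correlated at -0.776 with *CCS52A2*, 0.331 with *CCS52B* and -0.081 with *CCS52A1*.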

How the data were processed

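Per the submitters' processing notes and the study's methods, the authors converted NextSeq reads with bcl2fastq, mapped them to TAIR10 with Bowtie 0.12.9 and deposited unnormalized counts of uniquely mapped reads ("tag counts") per splice variant, with each library's mapped total. Read length is not given in the sources used here. Variants of a gene share reads. Groups and replicate numbers came from sample titles, and replicates were stated to be biological.

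Counts of 18 libraries (3 per group) were fitted in 1 model of 6 group means with edgeR 4.0.16 (R 4.3.3), library sizes equal to the mapped totals, TMM scaling and filterByExpr. SE is |log2FC| over the square root of F. Alternatives were DESeq2 1.42.0, other scalings, filters, features, thresholds and fits. Intervals for genes with at most 3 reads per library are exact Poisson intervals at 95%. Coordinates are from TAIR10.1. Tests on simulated data for the Day 6 genotype comparison (24468 variants tested) recovered 77 of 100 genes changed by log2FC 1 and 96 of 100 changed by 2.

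Members and lists were chosen with earlier results of these data known. The rule for other named genes was the 3 highest and 3 lowest called at Day 6 per list, plus *DEL1*, *GTL1*, *UVI4*, *OSD1*, *CDT1A* and *CYCA2;3*, the 3 genes most correlated with each activator, and *ARF7* and *ARF19* as the check of genotype.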

Additional observations from a re-analysis of the deposited data

Results flagged for a closer look

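In 5 results the change over time differed between *nph4-1 arf19-1* and WT by edgeR's test of the difference itself. For *CCS52A1* it differed by 1.43 from Day 0 to Day 6 (FDR 0.000167) and by 1.36 from Day 4 to Day 6 (FDR 0.000435), and both calls were kept in all 12 fits that left 1 library out. *CCS52B* differed by -2.41 from Day 0 to Day 6 (FDR 0.000347). For *CDC20.1* the fitted values were -5.74 from Day 0 to Day 4 (FDR 0.00857) and -5.27 from Day 0 to Day 6 (FDR 0.00716), but the Day 0 WT libraries held at most 1 read each, so these sizes depend on the fit and are no bound, and each call was lost in 8 of 12 fits that left 1 library out (FDR up to 0.0568 and 0.0518).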

How the results depend on the processing

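The number of the 5 genes called was within 1.5 times its value for the genotype differences at Days 0, 4 and 6 under every alternative. From Day 0 to Day 4 in the mutant (1 called) it was 4 with library totals alone, 2 with DESeq2 size factors in edgeR, with no filter, with a mean count of at least 10 and with the replicate block, and 3 at FDR < 0.05 and with DESeq2. From Day 0 to Day 6 in the mutant (5) it was 3 with totals alone and 2 with |log2FC| > 2. From Day 4 to Day 6 in the mutant (1) it was 0 with totals alone and with |log2FC| > 2, and 2 at FDR < 0.05 and with DESeq2. In WT it was 2 from Day 0 to Day 6 (5) and 0 from Day 4 to Day 6 (4) with |log2FC| > 2, and 1 for the latter with only the compared groups fitted. For genotype by time from Day 0 to Day 4 (1) it was 2 with no filter and with the replicate block, 3 at FDR < 0.05 and with DESeq2, and 0 with only the compared groups; from Day 4 to Day 6 (1) it was 0 with |log2FC| > 2.

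Directions turned with library totals alone for *CCS52A2* from Day 0 to Day 4 in WT (0.13) and in the mutant (0.82), for *CCS52A2* to Day 6 in WT (0.002) and in the mutant (0.22), and for *CCS52A1* to Day 6 in WT (0.57). The log2 CDC20 to CCS52A ratio, mutant minus WT at Day 6, was -3.01 with *CCS52B* in the denominator.

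Leaving out 1 library at a time, the counts ran from 0 to 0 and 2 to 3 and 4 to 4 for the successive genotype differences (Days 0, 4, 6). WT counts were 3 to 3, 4 to 5 and 1 to 4 for Day 0 to Day 4, Day 0 to Day 6 and Day 4 to Day 6, and in the mutant 1 to 2, 3 to 5 and 0 to 0. For genotype by time they were 0 to 2, 2 to 3 and 1 to 1. The ratio difference ran from 1.67 to 2.26 at Day 0, -3.68 to -2.78 at Day 4 and -4.35 to -3.73 at Day 6.

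Replicate numbers did not pair the libraries: over 45 same-numbered pairs the correlation of deviations was -0.102 to 0.272, with 4 over 0.1. At Day 0 the CDC20 copies had at most 4 reads per library, which limits every comparison with that day. The causes of these shifts were not tested.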
